A study of Arabidopsis thaliana with 4 samples.

Results

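Messenger RNA of 10 genes of flavonoid and anthocyanin synthesis was followed in the shoot apex of Arabidopsis thaliana plants of the Col-0 ecotype, out of 32356 genes with values. The genes were chosen by their AGI codes, and the choice rested on values of these data, since it records that DFR and LDOX rose with zebularine in wild type. All 10 were found in the count table, and all 10 passed the filter on low counts, as did 19682 genes in all. They are CHS, CHI, F3H, F3'H, DFR, LDOX, the glucosyltransferase gene AT4G14090, the glutathione transferase gene GSTF12, and the transcription factor genes PAP1 and TT8.

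There were 4 groups of 2 biological replicate libraries each. Group nse4a-2_zeb held nse4a-2 mutant plants kept for 24 h in liquid medium with 20 µM zebularine, and group WT_zeb held wild-type plants in the same medium. Group nse4a-2_ctrl held mutant plants in liquid medium with no drug, and group WT_ctrl held wild-type plants in that drug-free medium. All plants were 9 days old at transfer and were grown in long days. Leaves, hypocotyls and roots were cut off before freezing. Zebularine is a cytidine analogue that traps DNA methyltransferases on DNA. NSE4A encodes a subunit of the SMC5/6 complex, which acts on chromosome structure and DNA repair. The labels give neither the lesion of nse4a-2 nor how many plants were pooled, and whether the replicates came from separate sowings is not given. The p-values therefore measure the spread between these libraries, part of which may be technical.

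Flavonoids are made from phenylpropanoid precursors by a chain of enzymes. CHS, CHI and F3H act first and serve flavonols, anthocyanins and proanthocyanidins alike, and F3'H adds a hydroxyl group to the B ring. DFR and LDOX act later and commit the flow to anthocyanidins, which are then glycosylated, acylated and moved into the vacuole. In Arabidopsis the late genes are known targets of a MYB, bHLH and WD40 protein complex to which PAP1 and TT8 can belong, whereas the early genes also answer to flavonol-specific MYB factors.

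Total counts per library were 15360494 to 19811948, and 3 counts, the most that a count of 0 allows at 95% confidence, were worth 0.151 to 0.195 CPM (the count scaled by edgeR to a common library size). These limits cover counting error only. NSE4A had 18.5 and 21.1 CPM in nse4a-2_zeb, 10.5 and 12.9 CPM in WT_zeb, 8.39 and 7.79 CPM in nse4a-2_ctrl, and 10.7 and 9.22 CPM in WT_ctrl. Reads over the whole gene do not check the genotype while the lesion is not given. All 9 marker genes of the shoot apex and its epidermis had reads, and 7 of them passed the filter on low counts. Their summed level was 1021 to 1453 CPM, of which PDF1 alone gave 636 to 984 CPM. STM had 13.6 to 21.3 CPM and KNAT1 20.9 to 38.0 CPM. WUS, at 0 to 0.192 CPM, and CLV3, at 0 to 0.384 CPM, were close to the value of 3 counts. The 6 root markers summed to 0.588 to 11.3 CPM, with 1 called higher and 2 lower in nse4a-2_zeb than in nse4a-2_ctrl. The 10 markers of photosynthetic leaf cells summed to 22295 and 19707 CPM in nse4a-2_zeb, against 13594 and 15803 CPM in nse4a-2_ctrl, and 5 of them were called higher there. The 7 stomatal-lineage markers summed to 111.4 and 89.5 CPM in nse4a-2_zeb, against 160.9 and 170.1 CPM in nse4a-2_ctrl, and 3 of them were called lower. In that comparison 8.94% of all tested genes were called higher and 5.74% lower. Between genotypes in zebularine, 1 stomatal marker was called higher and 2 lower in nse4a-2, 1 leaf marker was called lower, and 1 root marker was called higher and 1 lower. There 12.9% of all tested genes were called higher and 9.09% lower. In control medium 2 leaf markers were called lower in nse4a-2, where 2.28% of all tested genes were called higher and 0.854% lower. No marker of these lists was at 0 throughout, and the part of these marker differences in the results below was not tested. In these bulk samples fewer cells of a type and less RNA per cell cannot be told apart.

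The group WT_zeb, whose response entered the choice of the genes, had the highest mean of all 10. In nse4a-2 the answer to zebularine was split. The late genes DFR and LDOX rose with F3'H and GSTF12, while the early genes CHI and F3H fell. The calls of CHI and F3H were lost in most of the other fits that were tried, with the direction kept in all. Those of LDOX and GSTF12 were each lost in 1 of these fits and that of F3'H in 3, while DFR kept its call throughout. Of the 10 genes, 4 were called higher and 2 lower in nse4a-2_zeb than in nse4a-2_ctrl, where 8.94% of all tested genes were called higher and 5.74% lower. A gene was called at an edgeR quasi-likelihood adjusted p below 0.05, adjusted by Benjamini-Hochberg over all 19682 genes. The median log2 fold change of the 10 genes was 0.18, against −0.00065 for all genes tested. The groups compared here share no library with the wild-type comparison on which the choice rested. All 4 groups were fitted together, however, so the wild-type libraries entered the estimate of spread behind these p-values.

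**Figure D1:**
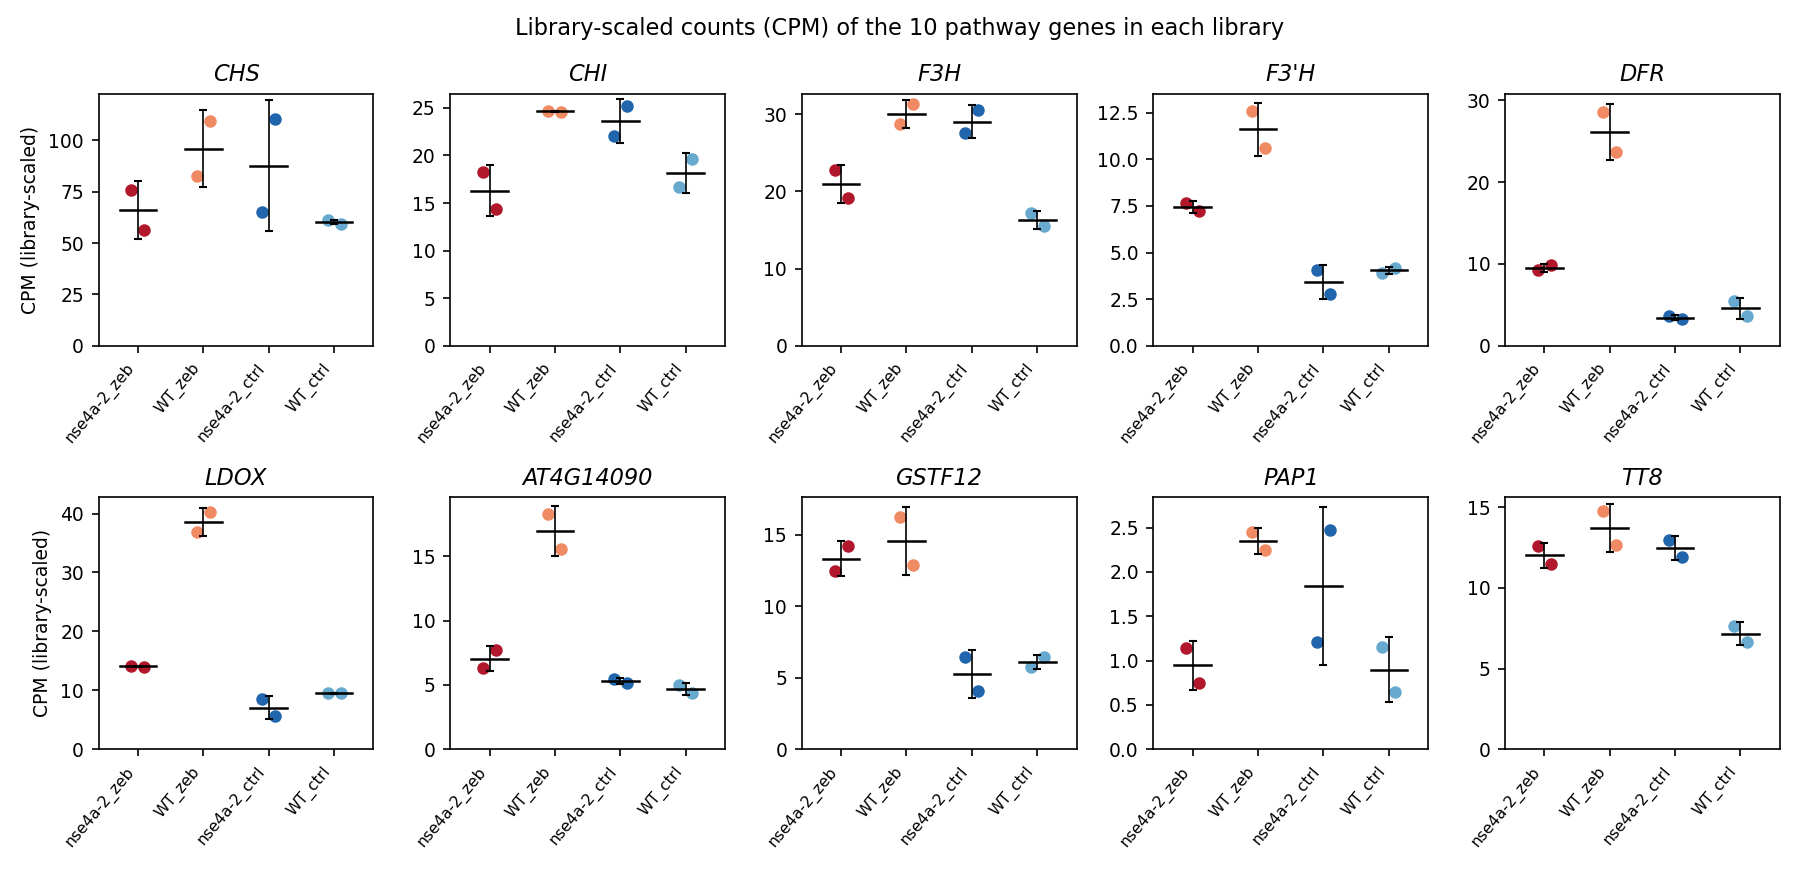
Library-scaled counts, in CPM (y axis, from 0) of each of the 10 genes in the 4 groups (x axis). Points are the 2 libraries of a group, the horizontal line is their mean and the bar is ± 1 SD. WT_zeb has the highest mean in all 10 panels. DFR, LDOX, F3'H and GSTF12, the genes called higher in nse4a-2_zeb than in nse4a-2_ctrl, have the higher mean in nse4a-2_zeb of these groups.

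Compared per length, by the authors' mean FPKM, CHS was the most abundant of the 10 mRNAs in every group, with 50.3 in nse4a-2_zeb, 72.7 in WT_zeb, 66.5 in nse4a-2_ctrl and 45.2 in WT_ctrl. PAP1 was the scarcest in 3 of the 4 groups, with authors' mean FPKM of 1.30 in nse4a-2_zeb, 3.21 in WT_zeb, 2.52 in nse4a-2_ctrl and 1.22 in WT_ctrl, and in nse4a-2_ctrl F3'H was scarcer, at 2.05. The order of the 4 groups was the same by CPM as by the authors' mean FPKM for 10 of 10 genes. The span over the 8 libraries differed widely between genes. The highest library stood 8.87-fold above the lowest for DFR and 7.09-fold for LDOX, but only 1.75-fold for CHI, 1.96-fold for CHS and 2.02-fold for F3H.

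CHS (AT5G13930, chromosome 5, 4488476 to 4490264, plus strand of TAIR10.1) encodes chalcone synthase, the entry enzyme of the pathway. It had 76.0 and 56.1 CPM in nse4a-2_zeb, 82.7 and 109.2 CPM in WT_zeb, 65.3 and 110.1 CPM in nse4a-2_ctrl, and 61.0 and 59.5 CPM in WT_ctrl. The mutant control libraries lay far apart, and each group overlapped its neighbours in the order of means. CHS changed by −0.41 ± 0.24 log2 (SE) in nse4a-2 with zebularine, which did not pass (edgeR adjusted p 0.294). Between genotypes it differed by −0.54 ± 0.24 in zebularine (edgeR adjusted p 0.139) and by 0.54 ± 0.24 in control medium (edgeR adjusted p 0.270), neither past the test.

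CHI (AT3G55120, chromosome 3, 20430059 to 20431597, minus strand) encodes chalcone isomerase, which closes the flavanone ring. It had 18.2 and 14.4 CPM in nse4a-2_zeb, 24.7 and 24.6 CPM in WT_zeb, 22.0 and 25.2 CPM in nse4a-2_ctrl, and 16.7 and 19.7 CPM in WT_ctrl. The nse4a-2_zeb libraries lay below all WT_zeb and nse4a-2_ctrl libraries and overlapped those of WT_ctrl. CHI fell in nse4a-2 with zebularine by 0.54 ± 0.16 log2 (edgeR adjusted p 0.0469), close to the threshold. In zebularine it was lower in nse4a-2 than in WT, by −0.60 ± 0.15 (edgeR adjusted p 0.0224), and in control medium the genotypes differed by 0.38 ± 0.15, which did not pass (edgeR adjusted p 0.232).

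F3H (AT3G51240, chromosome 3, 19025192 to 19026872, plus strand) encodes flavanone 3-hydroxylase, which makes dihydroflavonols. Its level was 22.7 and 19.2 CPM in nse4a-2_zeb, 28.8 and 31.3 CPM in WT_zeb, 27.5 and 30.6 CPM in nse4a-2_ctrl, and 17.2 and 15.5 CPM in WT_ctrl. Wild type in zebularine and the mutant in control medium overlapped at the top, the mutant in zebularine stood below both, and wild type in control medium was lowest. F3H fell in nse4a-2 with zebularine by 0.47 ± 0.13 log2 (edgeR adjusted p 0.0434). It was higher in nse4a-2 than in WT in control medium, by 0.83 ± 0.14 (edgeR adjusted p 0.0145), and lower in nse4a-2 than in WT in zebularine, by −0.52 ± 0.13 (edgeR adjusted p 0.0216).

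The falls of CHI and F3H in nse4a-2 with zebularine were not stable. CHI kept its call in 2 of 12 alternatives and F3H in 3 of 12, with the direction kept in all, and with DESeq2 the values were −0.52 for CHI (adjusted p 0.0854) and −0.46 for F3H (adjusted p 0.105). Without nse4a-2_zeb replicate 2 the edgeR values were −0.37 for CHI (adjusted p 0.319) and −0.35 for F3H (adjusted p 0.300).

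F3'H (AT5G07990, chromosome 5, 2560328 to 2563137, plus strand) encodes flavonoid 3'-hydroxylase, the enzyme that leads to quercetin and cyanidin derivatives. It had 7.68 and 7.20 CPM in nse4a-2_zeb, 12.6 and 10.6 CPM in WT_zeb, 4.07 and 2.78 CPM in nse4a-2_ctrl, and 3.91 and 4.16 CPM in WT_ctrl. Both zebularine groups stood above both control groups, and the control groups overlapped. F3'H rose in nse4a-2 with zebularine by 1.12 ± 0.23 log2 (edgeR adjusted p 0.0114). That call was lost without nse4a-2_ctrl replicate 2, where the change was 0.87 (edgeR adjusted p 0.0532), and without either nse4a-2_zeb library, where it was 1.07 and 1.17 (edgeR adjusted p 0.0509 and 0.0639). The genotype difference in zebularine, −0.64 ± 0.21, just missed the threshold (edgeR adjusted p 0.0535), and that in control medium was −0.24 ± 0.24 (edgeR adjusted p 0.660).

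DFR (AT5G42800, chromosome 5, 17164093 to 17166032, minus strand) encodes dihydroflavonol 4-reductase, the first enzyme of the anthocyanin branch. It had 9.20 and 9.86 CPM in nse4a-2_zeb, 28.5 and 23.7 CPM in WT_zeb, 3.69 and 3.22 CPM in nse4a-2_ctrl, and 5.51 and 3.65 CPM in WT_ctrl. WT_zeb stood highest and nse4a-2_zeb next, both clear of the control groups, which overlapped each other. DFR rose in nse4a-2 with zebularine by 1.46 ± 0.22 log2, a fold of 2.76 (edgeR adjusted p 0.00323), and kept that call in 12 of 12 alternatives.

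LDOX (AT4G22880, chromosome 4, 12004726 to 12006209, minus strand) encodes leucoanthocyanidin dioxygenase, which makes the coloured anthocyanidins. Its level was 14.15 and 14.01 CPM in nse4a-2_zeb, 36.9 and 40.3 CPM in WT_zeb, 8.46 and 5.69 CPM in nse4a-2_ctrl, and 9.58 and 9.48 CPM in WT_ctrl. None of the 4 groups overlapped another. LDOX rose in nse4a-2 with zebularine by 0.99 ± 0.18 log2, a fold of 1.99 (edgeR adjusted p 0.00738). The call was lost without nse4a-2_zeb replicate 2, where the change was 1.00 (edgeR adjusted p 0.0522).

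Since DFR and LDOX were named for their rise in wild type, their differences that use wild-type libraries are given without a test. In zebularine, nse4a-2 differed from WT by −1.45 ± 0.20 log2 for DFR and by −1.46 ± 0.17 for LDOX. In control medium the differences were −0.42 ± 0.24 for DFR and −0.43 ± 0.19 for LDOX.

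The 250 bases before the annotated start of CHS, F3H, DFR and LDOX are shown because the first pair are early genes and the second pair late genes of the same chain, and they differed in how they moved in nse4a-2 with zebularine. Sequences are from the RefSeq genome TAIR10.1, read 5′ to 3′ on the strand of the gene, and capitals mark matches of the MYB motif ACCNAAC in either orientation and of the bZIP core ACGT. Where that core lies within a G-box, all letters of the G-box (CACGTG) are in capitals.
CHS (chr5:4488226-4488475, plus strand): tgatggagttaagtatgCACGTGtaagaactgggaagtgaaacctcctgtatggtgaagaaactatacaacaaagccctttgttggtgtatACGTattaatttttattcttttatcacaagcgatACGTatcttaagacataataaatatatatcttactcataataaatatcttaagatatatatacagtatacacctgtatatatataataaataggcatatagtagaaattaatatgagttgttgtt
F3H (chr3:19024942-19025191, plus strand): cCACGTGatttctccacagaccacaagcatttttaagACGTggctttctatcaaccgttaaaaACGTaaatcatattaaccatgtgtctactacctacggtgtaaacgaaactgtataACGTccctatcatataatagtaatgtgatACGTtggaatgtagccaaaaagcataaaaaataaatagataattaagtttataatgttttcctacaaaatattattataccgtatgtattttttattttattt
DFR (chr5:17166033-17166282, minus strand): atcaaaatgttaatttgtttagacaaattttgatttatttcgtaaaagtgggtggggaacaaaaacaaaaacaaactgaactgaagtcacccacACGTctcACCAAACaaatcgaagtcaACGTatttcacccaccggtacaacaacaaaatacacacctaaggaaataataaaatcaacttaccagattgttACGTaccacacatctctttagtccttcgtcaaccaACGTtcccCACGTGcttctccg
LDOX (chr4:12006210-12006459, minus strand): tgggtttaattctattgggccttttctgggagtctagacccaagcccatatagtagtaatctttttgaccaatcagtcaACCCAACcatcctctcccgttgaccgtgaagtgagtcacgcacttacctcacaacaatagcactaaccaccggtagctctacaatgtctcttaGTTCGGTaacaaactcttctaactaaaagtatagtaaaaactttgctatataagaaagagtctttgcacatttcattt

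The sequence CACGTG, known as the G-box, can be bound by bHLH and bZIP factors, and it contains ACGT, the core that bZIP factors such as HY5 can bind. ACCNAAC is a form of the motif that R2R3-MYB factors can bind. ACGT stood in the window of 4 of the 10 genes (CHS, F3H, DFR and TT8), and in 44.1% of the 27438 windows of this length before annotated genes. CACGTG stood in 3 of the 10 (CHS, F3H and DFR), and in 6.49% of all windows. DFR held 5 ACGT, with CACGTG 14 to 9 bases before the start, and 1 ACCNAAC, whereas LDOX held 2 ACCNAAC and lacked the bZIP core. On either strand, ACCNAAC stood in 5 of the 10 (F3'H, DFR, LDOX, GSTF12 and PAP1), and in 14.5% of all windows. The E-box CANNTG, of which the G-box is one form, stood in 7 of the 10 and in 55.3% of all windows. The exact form ACCTAAC stood in 0 of the 10 and in 2.46% of all windows. The window of F3H overlaps the opposite-strand gene AT3G51238. A match of letters is not evidence that a factor binds there.

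AT4G14090 (chromosome 4, 8122188 to 8123835, minus strand) is annotated in the table with anthocyanin 5-O-glucosyltransferase activity, the step that adds a sugar to the anthocyanin core. It had 6.35 and 7.72 CPM in nse4a-2_zeb, 18.3 and 15.6 CPM in WT_zeb, 5.47 and 5.13 CPM in nse4a-2_ctrl, and 5.01 and 4.35 CPM in WT_ctrl. WT_zeb stood far above the 3 other groups, which lay close together without overlapping. In nse4a-2 with zebularine the change was 0.41 ± 0.19 log2, which did not pass (edgeR adjusted p 0.189). In zebularine AT4G14090 was lower in nse4a-2 than in WT, by −1.27 ± 0.18 (edgeR adjusted p 0.00129), and by −1.42 to −1.14 with each library left out. The WT_zeb libraries also entered the choice of the genes, so this test is no independent support. In control medium the genotypes differed by 0.18 ± 0.20 (edgeR adjusted p 0.701).

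GSTF12 (AT5G17220, chromosome 5, 5658416 to 5659661, plus strand), the TT19 locus, encodes a glutathione transferase that carries anthocyanins towards the vacuole. Its level was 12.4 and 14.2 CPM in nse4a-2_zeb, 16.3 and 12.9 CPM in WT_zeb, 6.42 and 4.08 CPM in nse4a-2_ctrl, and 5.78 and 6.47 CPM in WT_ctrl. The zebularine groups overlapped each other, the control groups overlapped each other, and zebularine stood above control. GSTF12 rose in nse4a-2 with zebularine by 1.34 ± 0.23 log2, a fold of 2.54 (edgeR adjusted p 0.00548). This call was lost without nse4a-2_zeb replicate 2, where the change was 1.25 (edgeR adjusted p 0.0513). Between genotypes GSTF12 differed by −0.13 ± 0.21 in zebularine (edgeR adjusted p 0.701) and by −0.22 ± 0.24 in control medium (edgeR adjusted p 0.688).

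PAP1 (AT1G56650, chromosome 1, 21233555 to 21235292, minus strand), also called MYB75, encodes a MYB activator of the late genes. It had few reads, 10 to 50 per library. Its level was 1.14 and 0.75 CPM in nse4a-2_zeb, 2.45 and 2.24 CPM in WT_zeb, 1.21 and 2.47 CPM in nse4a-2_ctrl, and 1.16 and 0.64 CPM in WT_ctrl. As with CHS, the second mutant control library was about as high as WT_zeb and the first was not. PAP1 changed by −0.96 ± 0.48 log2 in nse4a-2 with zebularine (edgeR adjusted p 0.213), by −1.31 ± 0.47 between genotypes in zebularine (edgeR adjusted p 0.0721) and by 1.02 ± 0.48 between genotypes in control medium (edgeR adjusted p 0.301), none past the test at this depth.

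TT8 (AT4G09820, chromosome 4, 6181881 to 6186523, plus strand) encodes the bHLH partner of the MYB factors. It had 12.6 and 11.5 CPM in nse4a-2_zeb, 14.7 and 12.6 CPM in WT_zeb, 13.0 and 11.9 CPM in nse4a-2_ctrl, and 7.65 and 6.66 CPM in WT_ctrl. The first 3 groups overlapped their neighbours and WT_ctrl stood below them. TT8 was higher in nse4a-2 than in WT in control medium, by 0.80 ± 0.17 log2 (edgeR adjusted p 0.0347), a call lost in 6 of 8 fits that left out 1 library, with 0.72 without WT_ctrl replicate 2 (edgeR adjusted p 0.162). In nse4a-2 with zebularine it changed by −0.05 ± 0.16 (edgeR adjusted p 0.867), and in zebularine the genotypes differed by −0.19 ± 0.16 (edgeR adjusted p 0.428).

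In control medium, F3H and TT8 were thus the 2 genes called among the 8 members tested between genotypes, both higher in nse4a-2, where 2.28% of all tested genes were called higher and 0.854% lower. In zebularine 3 of the 8 were called, CHI, F3H and AT4G14090, all lower in nse4a-2, where 12.9% of all tested genes were called higher and 9.09% lower. The median of the 10 genes was −0.62 in zebularine, against −0.02 for all genes tested, and 0.28 in control medium, against −0.01 for all genes tested. Both comparisons use wild-type libraries that also entered the choice of the genes, so these calls are no independent support. Each call of F3H between genotypes was lost without some libraries. In control medium it was lost without either WT_ctrl library or without nse4a-2_ctrl replicate 2, where it ranged up to an edgeR adjusted p of 0.0895. In zebularine the calls of CHI and F3H were lost without either WT_zeb library or without nse4a-2_zeb replicate 2, where CHI was at −0.44 (edgeR adjusted p 0.176) and F3H at −0.40 (edgeR adjusted p 0.173).

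In wild type, the choice of the genes used the response itself, so it is described with no test. The log2 fold change of WT_zeb over WT_ctrl was 2.50 ± 0.21 for DFR, 2.02 ± 0.17 for LDOX and 1.85 ± 0.19 for AT4G14090. It was 1.52 ± 0.22 for F3'H, 1.36 ± 0.47 for PAP1, 1.25 ± 0.23 for GSTF12 and 0.93 ± 0.16 for TT8. The early genes had the smaller values, 0.88 ± 0.14 for F3H, 0.67 ± 0.24 for CHS and 0.44 ± 0.15 for CHI. All 10 values were above 0. Over all tested genes, 1.66% were called higher and 0.635% lower, and no call is given for the 10. The median of the 10 was 1.31, against −0.01 for all genes tested.

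Set side by side, the response in nse4a-2 minus that in WT was −2.33 ± 0.67 log2 for PAP1, −1.44 ± 0.27 for AT4G14090, −1.35 ± 0.19 for F3H and −1.08 ± 0.34 for CHS. It was −1.04 ± 0.31 for DFR, −1.02 ± 0.25 for LDOX, −0.99 ± 0.23 for TT8 and −0.98 ± 0.22 for CHI. Only F3'H, at −0.41 ± 0.32, and GSTF12, at 0.09 ± 0.32, were nearer to 0 than 0.98. These sizes contain the wild-type response by which the genes were chosen and are a description. Over all tested genes, the difference was called higher for 0.549% and lower for 0.224%.

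**Figure D2:**
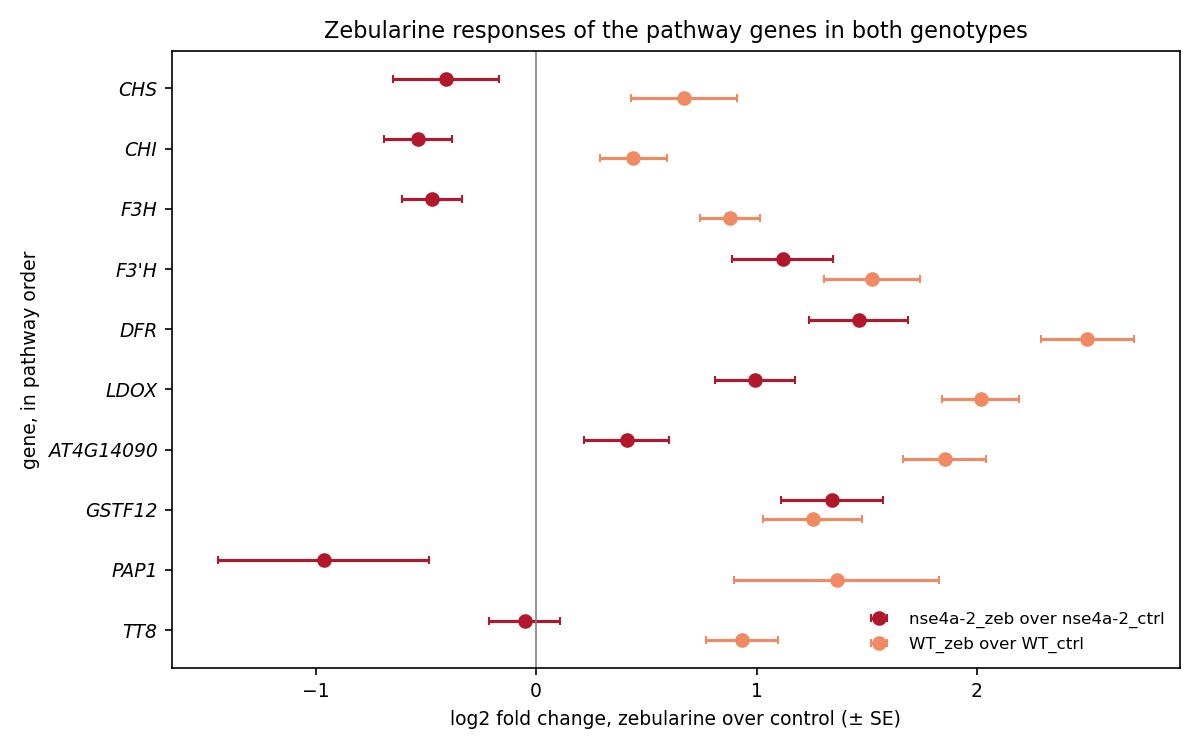
Log2 fold change of zebularine over control (x axis, bars ± SE) for each gene (y axis, pathway order), with nse4a-2 above WT in each row. In WT all 10 points lie above 0, and in nse4a-2 the values run from −0.96 for PAP1 to 1.46 for DFR, with CHS, CHI and F3H below 0 and F3'H, DFR, LDOX and GSTF12 above it.

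Over the 8 libraries, which are 4 groups of 2, the genes fell into a pair of sets by the likeness of their log2 CPM (Pearson r, a description over libraries that share groups, with the sets drawn after the values were seen). F3'H, DFR, LDOX, AT4G14090 and GSTF12 had r of 0.779 to 0.973 in their 10 pairs, and CHS, CHI, F3H and PAP1 had r of 0.787 to 0.886 in their 6 pairs. Between the sets r ran from −0.143 to 0.595 in 20 pairs. TT8 lay between them, with r of 0.433 to 0.850 to the early set and 0.449 to 0.641 to the other 5 genes. PAP1, an activator of late genes, thus had its higher r with the early enzymes in these libraries. It had only 10 to 50 reads per library. In nse4a-2_ctrl, replicate 2 was high for both PAP1 and CHS, at 2.47 and 110.1 CPM against 1.21 and 65.3 CPM in replicate 1. How much of the likeness rests on that library was not tested.

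**Figure D3:**
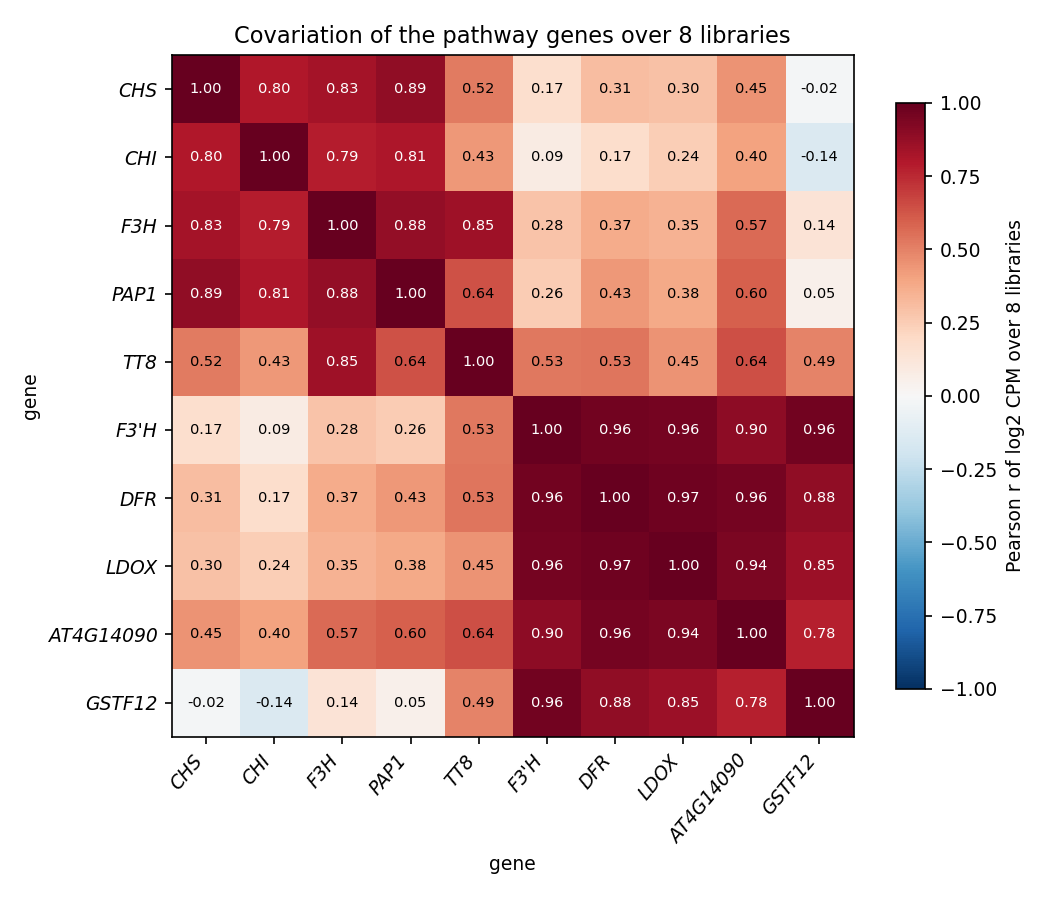
Pearson r of log2 CPM over the 8 libraries between each pair of the 10 genes (both axes), coloured from −1 to 1. The block of F3'H, DFR, LDOX, AT4G14090 and GSTF12 spans 0.779 to 0.973 and the block of CHS, CHI, F3H and PAP1 spans 0.787 to 0.886, while pairs between the blocks span −0.143 to 0.595.

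Counting within each library removes any difference of scaling between libraries. For every 100 reads of CHS, CHI and F3H together, there were 20.0 and 26.6 reads of DFR and LDOX in nse4a-2_zeb, 48.1 and 38.7 in WT_zeb, 10.6 and 5.37 in nse4a-2_ctrl, and 15.9 and 13.9 in WT_ctrl. No group overlapped another. DFR and LDOX, the late side of this ratio, were chosen for their rise in wild type, so the place of WT_zeb restates that choice and the wild-type values are a description. In nse4a-2 both zebularine libraries stood above both control libraries.

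**Figure D4:**
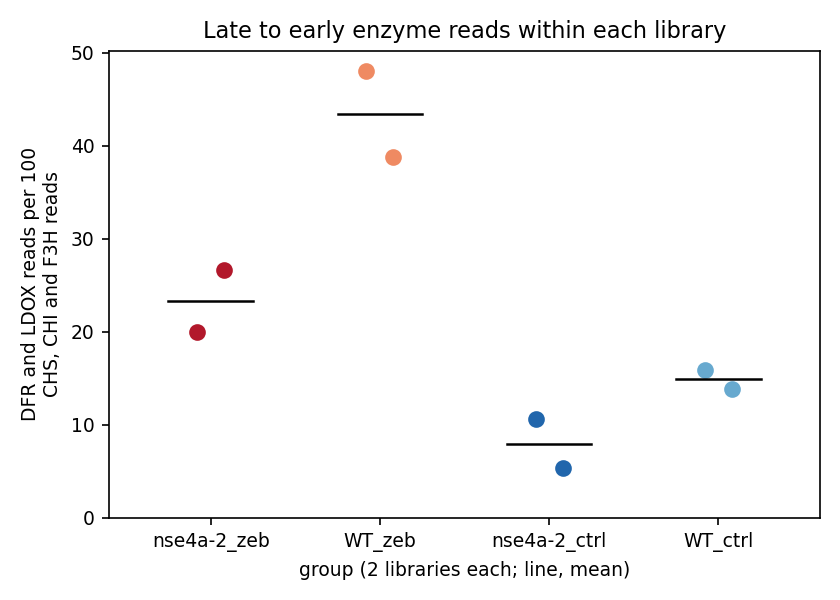
Reads of DFR and LDOX per 100 reads of CHS, CHI and F3H in the same library (y axis, from 0) by group (x axis). Points are libraries and lines are group means. The nse4a-2_zeb libraries, at 20.0 and 26.6, lie above both control groups and below the WT_zeb libraries at 48.1 and 38.7.

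Among all tested genes outside the 10, those most like DFR over the 8 libraries were PIP1A, a plasma membrane aquaporin (r 0.983), AT5G65380, annotated as a MATE efflux protein (r 0.977), the clock gene RVE8 (r 0.973), the glycolytic gene GAPC2 (r 0.965) and the clock gene LHY (r 0.961). Those most like CHS were the auxin transporter gene PIN3 (r 0.946), AT5G12050, annotated as an unknown protein (r 0.939), ERH3 (r 0.933), ACDO1 (r 0.917) and the glycine decarboxylase gene GLDP2 (r 0.917). A pair of morning clock genes stood among the 5 most like DFR and none among the 5 most like CHS. These r are a description over 8 libraries in 4 groups, picked as the highest of all tested genes. DFR was named for its rise in WT with zebularine. LHY and CCA1 were named as context because earlier results of these data showed them changed in wild type. What the likeness rests on was not tested. LHY had 74.5 and 75.6 CPM in nse4a-2_zeb, 148.6 and 111.7 CPM in WT_zeb, 16.0 and 12.4 CPM in nse4a-2_ctrl, and 20.3 and 18.0 CPM in WT_ctrl. The morning gene CCA1 had 74.8 and 77.3 CPM in nse4a-2_zeb, 87.2 and 90.6 CPM in WT_zeb, 27.7 and 21.7 CPM in nse4a-2_ctrl, and 14.97 and 16.7 CPM in WT_ctrl. With zebularine in nse4a-2, LHY rose by 2.41 ± 0.17 log2 (edgeR adjusted p 0.000135) and CCA1 by 1.62 ± 0.13 (edgeR adjusted p 0.000195). The clock hour of harvest is not given in the sources used here, and an effect of zebularine on the late genes cannot be told apart from a difference in that hour between the media.

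The neighbouring steps of the pathway were read from 7 lists of 67 genes, of which 57 passed the filter on low counts. In nse4a-2 with zebularine, the list of anthocyanin decoration, helper and transport genes had 3 of 9 called, all higher, with a median of 0.42 log2, where all tested genes had a median of −0.00065 and 8.94% were called higher and 5.74% lower. AT5MAT, which adds a malonyl group to anthocyanins, had 7.62 and 5.65 CPM in nse4a-2_zeb against 3.18 and 2.29 CPM in nse4a-2_ctrl and rose by 1.28 ± 0.25 (edgeR adjusted p 0.00935). The gene scpl10, which encodes a serine carboxypeptidase-like acyltransferase, had 9.77 and 10.9 CPM in nse4a-2_zeb against 4.64 and 4.58 CPM in nse4a-2_ctrl and rose by 1.17 ± 0.19 (edgeR adjusted p 0.00399). DTX35, a MATE transporter of flavonoids, rose by 0.75 ± 0.18 (edgeR adjusted p 0.0250). The calls of AT5MAT and DTX35 were lost without single libraries, AT5MAT without nse4a-2_zeb replicate 1 (edgeR adjusted p 0.0556) and DTX35 without nse4a-2_ctrl replicate 1 or either nse4a-2_zeb library (edgeR adjusted p up to 0.127).

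In the flavonol branch 9 of 11 genes were tested and 2 were called, both lower in nse4a-2_zeb, where 8.94% of all tested genes were called higher and 5.74% lower. The median of the 9 was −0.56 log2, while UGT78D3 at 0.51, OMT1 at 0.39 and RHM1 at 0.27, none of them called, lay above 0. UGT78D1, a flavonol 3-O-rhamnosyltransferase, had 48.9 and 39.3 CPM in nse4a-2_zeb against 67.1 and 79.9 CPM in nse4a-2_ctrl and fell by 0.74 ± 0.15 (edgeR adjusted p 0.0126). AT1G06000, annotated as a UDP-glycosyltransferase, had 63.9 and 54.7 CPM in nse4a-2_zeb against 81.1 and 96.6 CPM in nse4a-2_ctrl and fell by 0.58 ± 0.14 (edgeR adjusted p 0.0202). Without nse4a-2_zeb replicate 2 both calls were lost (edgeR adjusted p 0.130 for UGT78D1 and 0.181 for AT1G06000), as they were without nse4a-2_ctrl replicate 2. FLS1, the main flavonol synthase gene, stood at −0.56 ± 0.17 and missed the threshold (edgeR adjusted p 0.0539), although it passed in 4 of 12 alternatives (edgeR adjusted p 0.0237 to 0.0464). FLS1, UGT78D3, OMT1 and RHM1 were singled out after their values were seen.

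Phenylpropanoid entry genes feed the chain with p-coumaroyl-CoA. Of 9 genes 1 was called higher and 1 lower in nse4a-2_zeb, near the 8.94% and 5.74% of all tested genes, with a median of 0.37 log2. The count called higher depended on the fit: it was 3 with DESeq2, 3 with the replicate block and 2 without a low-count filter. The phenylalanine ammonia-lyase gene PAL1 had 112.1 and 143 CPM in nse4a-2_zeb against 68.5 and 92.3 CPM in nse4a-2_ctrl and rose by 0.66 ± 0.18 (edgeR adjusted p 0.0365), a call lost without WT_ctrl replicate 1, WT_ctrl replicate 2, nse4a-2_ctrl replicate 1 or nse4a-2_zeb replicate 2 (edgeR adjusted p up to 0.260). The ligase gene 4CL3, tied to flavonoid rather than lignin supply, had 10.5 and 9.28 CPM in nse4a-2_zeb against 20.1 and 21.4 CPM in nse4a-2_ctrl and fell by 1.07 ± 0.17 (edgeR adjusted p 0.00340). The 4CL3 call held in 12 of 12 alternatives.

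Of 12 sinapate and lignin genes, which draw on the same precursor, 4 were called, all higher in nse4a-2_zeb, with a median of 0.25 log2, where 8.94% of all tested genes were called higher and 5.74% lower. That count became 0 without nse4a-2_zeb replicate 2, 1 without nse4a-2_ctrl replicate 1 and 2 without nse4a-2_zeb replicate 1. They were CCR2 at 1.84 ± 0.51 (edgeR adjusted p 0.0388), HCT at 0.53 ± 0.11 (edgeR adjusted p 0.0137), CCR1 at 0.53 ± 0.11 (edgeR adjusted p 0.0127) and CCoAOMT1 at 0.46 ± 0.13 (edgeR adjusted p 0.0474), the last named after its value was seen. HCT, CCR1 and CCoAOMT1 act in monolignol synthesis, and CCR2 is a cinnamoyl-CoA reductase induced in defence. CCR2 lost its call without nse4a-2_zeb replicate 2 (1.29, edgeR adjusted p 0.294) or nse4a-2_ctrl replicate 1 (1.33, edgeR adjusted p 0.191), HCT without the same libraries (edgeR adjusted p up to 0.112), and CCR1 without either nse4a-2_zeb library (edgeR adjusted p up to 0.0823). CCoAOMT1 lost its call without either control library of either genotype and without either nse4a-2_zeb library (edgeR adjusted p 0.0612 to 0.292).

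Of 7 activators outside PAP1 and TT8, 5 were tested, with 1 called higher and 1 lower in nse4a-2_zeb, where 8.94% of all tested genes were called higher and 5.74% lower. In nse4a-2_zeb the WD40 gene TTG1 rose by 0.52 ± 0.13 log2 (edgeR adjusted p 0.0250) while the bHLH gene EGL3 fell by 0.67 ± 0.14 (edgeR adjusted p 0.0139). EGL3 had 12.6 and 15.6 CPM in nse4a-2_zeb against 22.4 and 22.6 CPM in nse4a-2_ctrl. The TTG1 call was lost without any one of the 4 nse4a-2 libraries (edgeR adjusted p up to 0.149), and that of EGL3 without replicate 1 of nse4a-2_ctrl or of nse4a-2_zeb (edgeR adjusted p up to 0.0860). Of 11 repressors, 1 was called higher and 1 lower, again near the 8.94% and 5.74% of all tested genes. The count of repressors called higher was 2 with DESeq2, with the replicate block and without a low-count filter. MYBL2, a small MYB protein that blocks the late genes, had 9.58 and 7.49 CPM in nse4a-2_zeb against 4.32 and 2.23 CPM in nse4a-2_ctrl and rose by 1.38 ± 0.30 (edgeR adjusted p 0.0143), a call lost without nse4a-2_ctrl replicate 2 (0.98, edgeR adjusted p 0.0531) or nse4a-2_zeb replicate 1 (1.19, edgeR adjusted p 0.0740). TRY, a small MYB protein known from trichome patterning, had 0 reads in both nse4a-2_zeb libraries and 17 reads over both nse4a-2_ctrl libraries. With 3 counts over both nse4a-2_zeb libraries taken as the floor, the 17 reads stood 5.88-fold above it after scaling. That ratio takes the 17 reads as exact, so it is not a lower bound of the change. TRY was called lower (edgeR adjusted p 0.0137), a call lost without nse4a-2_ctrl replicate 1 or either nse4a-2_zeb library.

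Of 8 proanthocyanidin genes, which serve the seed coat, 2 were tested. The WRKY gene TTG2, which also acts in trichomes, rose in nse4a-2_zeb by 1.21 ± 0.17 log2 (edgeR adjusted p 0.00225) and held in 12 of 12 alternatives. BAN, the reductase gene that defines the branch, had 1 read in 1 library and 0 in the others, and TT1 had 0 in all 8; both were named after their counts were seen.

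Between genotypes in zebularine, 3 of the 9 decoration genes were called lower in nse4a-2 and 1 higher, where 9.09% of all tested genes were called lower and 12.9% higher. UF3GT, a glycosyltransferase that adds xylose to anthocyanins, had 2.16 and 2.13 CPM in nse4a-2_zeb against 6.22 and 8.37 CPM in WT_zeb and was lower by −1.76 ± 0.28 log2 (edgeR adjusted p 0.00227). AT1G03940, annotated as an acyltransferase, was lower by −1.09 ± 0.20 (edgeR adjusted p 0.00495) and AT5MAT by −0.72 ± 0.22 (edgeR adjusted p 0.0441), while DTX35 was higher by 0.96 ± 0.18 (edgeR adjusted p 0.00577). The AT5MAT call was lost with DESeq2 (adjusted p 0.105) and without any one wild-type or nse4a-2_zeb library (edgeR adjusted p 0.0551 to 0.273), whereas those of UF3GT, AT1G03940 and DTX35 held in 12 of 12 alternatives. Of 9 flavonol genes 1 was called higher and 1 lower, and of 12 sinapate and lignin genes 2 higher and 2 lower. Of 9 phenylpropanoid entry genes 2 were called lower and 0 higher, as of 11 repressors. These counts moved in some alternatives. The flavonol gene UGT78D3 had 30 and 32 reads in nse4a-2_zeb against 4 and 7 in WT_zeb (2.68 ± 0.50 log2, edgeR adjusted p 0.00478). In control medium UGT78D3 had 18 and 24 reads in nse4a-2_ctrl against 4 and 5 in WT_ctrl. That difference, 2.27 ± 0.53, just missed the threshold (edgeR adjusted p 0.0525). Its difference of zebularine responses was 0.41 ± 0.77 (edgeR adjusted p 0.864). No alternative fits are given for UGT78D3. Of the 2 tested proanthocyanidin genes 0 were called. Of the 5 tested activators 2 were called lower. EGL3 had 12.6 and 15.6 CPM in nse4a-2_zeb against 26.9 and 23.2 CPM in WT_zeb and was lower by −0.83 ± 0.14 (edgeR adjusted p 0.00328), a call kept in 12 of 12 alternatives. The activator gene MYB90, a close relative of PAP1, had 3 and 1 reads in nse4a-2_zeb against 19 and 17 reads in WT_zeb (−2.87 ± 0.88, edgeR adjusted p 0.0431), a call lost with DESeq2 (adjusted p 0.0992) and without any one WT_zeb or nse4a-2_zeb library (edgeR adjusted p 0.0967 to 0.249). In control medium UGT78D2, a flavonoid 3-O-glucosyltransferase, had 44.6 and 60.5 CPM in nse4a-2_ctrl against 22.5 and 22.2 CPM in WT_ctrl and was higher by 1.24 ± 0.16 (edgeR adjusted p 0.00479). MYB90 also had fewer reads in the mutant there, 2 and 0 in nse4a-2_ctrl against 15 and 4 in WT_ctrl. That difference, −3.00 ± 1.08, was not called (edgeR adjusted p 0.180). For MYB90 the difference of zebularine responses was 0.13 ± 1.13 (edgeR adjusted p 0.979). The repressor gene LBD37 had 12.8 and 12.2 CPM in nse4a-2_ctrl against 49.8 and 50.8 CPM in WT_ctrl and was lower by −2.01 ± 0.31 (edgeR adjusted p 0.0121). The LBD37 call was lost without either nse4a-2_ctrl library (edgeR adjusted p 0.0690 and 0.108), while that of UGT78D2 held in 12 of 12 alternatives. UF3GT, AT1G03940, UGT78D3, MYB90, UGT78D2 and LBD37 were singled out after their values were seen. UGT78D1 and UGT78D2, and PAP1 and MYB90, are related genes, and how reads that match more than 1 gene were counted is not stated.

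**Figure D5:**
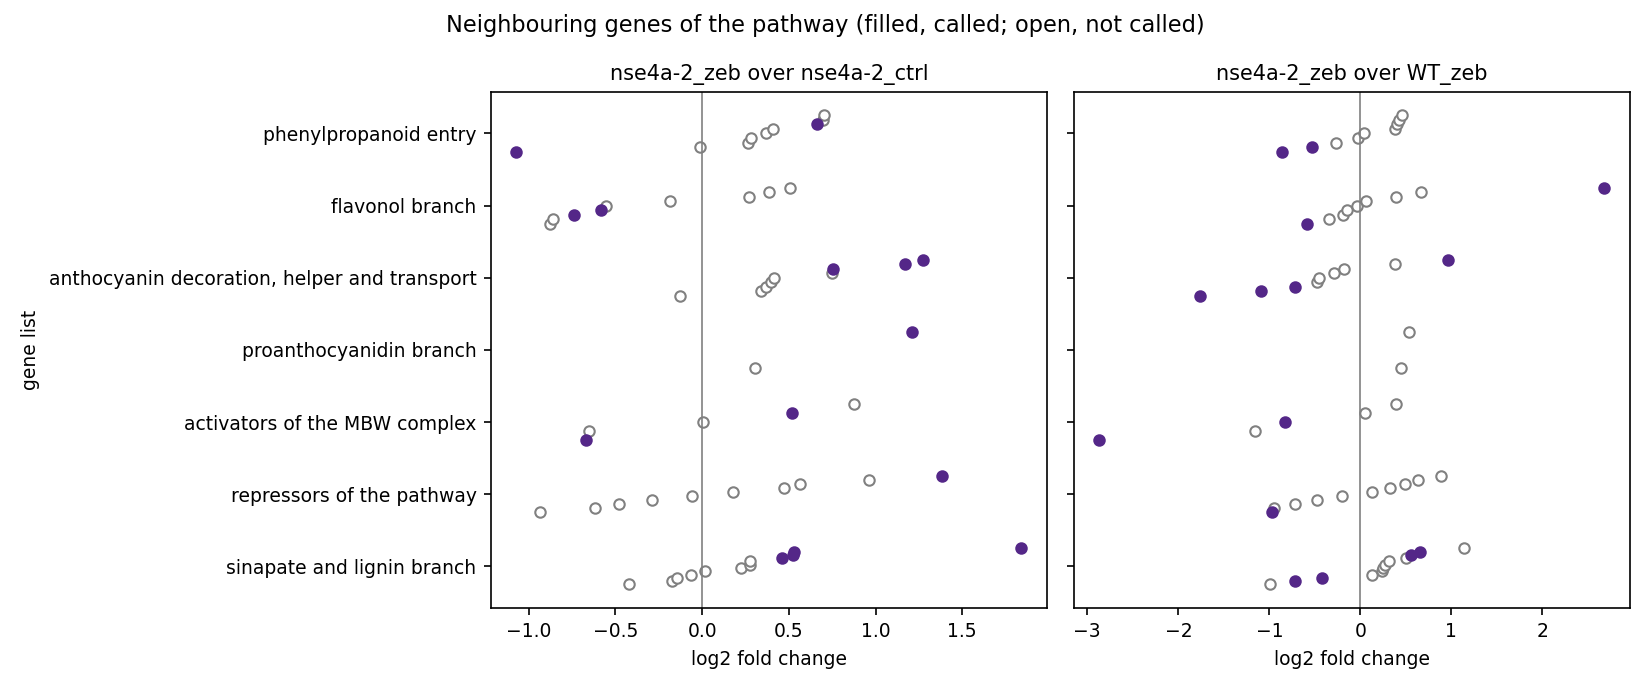
Log2 fold change (x axis) of each tested gene of the 7 lists (y axis) for nse4a-2_zeb over nse4a-2_ctrl (left) and nse4a-2_zeb over WT_zeb (right). Filled points passed an edgeR adjusted p below 0.05 and open points did not, and TRY, with 0 reads in nse4a-2_zeb, is not drawn. On the left, decoration genes have 3 filled points, all above 0, and flavonol genes have 2, both below 0.

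Some of the 10 genes overlap others on the opposite strand, and the strand kept by the libraries is not stated, so reads of such partners cannot be told apart there. GSTF12 shares 108 bases with AT5G17230, which had 1340 to 2626 reads per library and changed by −0.07 ± 0.11 log2 in nse4a-2 with zebularine (edgeR adjusted p 0.730). Between genotypes in zebularine AT5G17230 was called lower in nse4a-2, by −0.61 ± 0.11 (edgeR adjusted p 0.00528). It differed by −0.23 ± 0.11 in control medium (edgeR adjusted p 0.326) and changed by 0.31 ± 0.11 in WT with zebularine (edgeR adjusted p 0.215), neither called. AT4G14090 shares 230 bases with AT4G14100, which had 174 to 327 reads and changed by −0.42 ± 0.19 (edgeR adjusted p 0.177). F3H shares 1588 bases with the noncoding gene AT3G51238, which had 4 to 21 reads, and CHS shares 2 bases with AT5G13940, which had 0 to 1 reads. Of the stretches of 100 bases in the annotated transcripts, the read length, LDOX had 2 of 1301 that also occur elsewhere in the genome, and the other 9 genes had 0.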

How the data were processed

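RNA of dissected shoot apices was read as single ends of 100 bases from TruSeq libraries, per the labels' protocols. The authors deposited, for each replicate, a read count per gene that the headers call raw and not normalized. The authors' mean FPKM per group was used as deposited for levels compared between genes. The submitters' processing notes name TAIR10, TopHat2 and Cuffdiff; the counter, annotation, strand setting and handling of reads with several matches are not given in the sources used here. Of the deposited table, 12 columns of per-sample values were not used. The series lists 1 sample per group, and the table's headers give the 2 biological replicates of each.

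The members and lists were chosen with earlier results of these data known. Of 32399 genes listed, 43 had no values and 8190 had 0 counts throughout. After filterByExpr, 19682 genes were scaled by TMM (factors 0.957 to 1.03), and edgeR 4.0.16 under R 4.3.3 fitted all 4 groups together. Each SE was obtained by dividing the size of the log2 fold change by the root of the F statistic. The spread corresponded to a biological coefficient of variation of 13.4%, and replicates of a group correlated at r of 0.980 to 0.986 across genes, which are not independent replicates. Zebularine in nse4a-2 was tested for all 10 members, the genotype comparisons for the 8 other than DFR and LDOX, and zebularine in WT was described. The 12 alternatives were DESeq2 1.42.0, RLE size factors, no low-count filter, the replicate block, and leaving out each of the 8 libraries. Across genes, replicates that carry the same number deviated from their group means with r of −0.086 to 0.234, and the headers state no pairing.

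The text names all 10 members, and of each list up to 3 called genes with the largest change in nse4a-2 with zebularine. It also names the 5 genes most like DFR and the 5 most like CHS by Pearson r, NSE4A and a pair of clock genes. Others are marked in the text as singled out after their values were seen. The fitting procedure was tested on simulated data with known changes. Coordinates and sequences are those of RefSeq TAIR10.1, matched by locus tag (31912 genes found), and were not carried over from the TAIR10 of the counts. Motifs were searched on both strands. Tables were made with Python 3.11.15.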

Additional observations from a re-analysis of the deposited data

Results flagged for a closer look

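The zebularine responses of 2 genes differed between the genotypes by the test of the difference itself, among the members other than DFR and LDOX, where 0.549% of all tested genes were called higher and 0.224% lower. For F3H the response in nse4a-2 minus that in WT was −1.35 ± 0.19 log2 (edgeR adjusted p 0.0217). For AT4G14090 it was −1.44 ± 0.27 (edgeR adjusted p 0.0479). The wild-type response is part of this difference, and the genes were chosen with it known, so the test is no independent support. The F3H call was lost in 5 fits that left out 1 library (edgeR adjusted p up to 0.0950 without nse4a-2_zeb replicate 2), and that of AT4G14090 in all 8 (edgeR adjusted p up to 0.126 without WT_ctrl replicate 2), with the direction kept in each. With DESeq2, 4 of these 8 members were called.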

How the results depend on the processing

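Among the log2 fold changes of the 10 members, no sign changed with DESeq2, RLE size factors, no low-count filter or the replicate block. In nse4a-2 with zebularine the 2 members called lower became 0 with DESeq2, 1 with RLE size factors, 1 with the replicate block, and 0 to 1 when each library was left out, while the 4 called higher ranged from 1 to 4. Without a low-count filter and with the replicate block, F3'H passed the test between genotypes in zebularine (−0.64 in each, edgeR adjusted p 0.0476 and 0.0457).
Leaving out 1 library at a time turned small log2 values round, none of them called. In nse4a-2 with zebularine CHS ranged from −0.75 to 0.013 (above 0 without nse4a-2_ctrl replicate 2) and TT8 from −0.12 to 0.015 (without nse4a-2_ctrl replicate 1 or nse4a-2_zeb replicate 2). Between genotypes in zebularine GSTF12 ranged from −0.28 to 0.042 (without WT_zeb replicate 1). In control medium F3'H ranged from −0.51 to 0.029 and GSTF12 from −0.56 to 0.086 (both without nse4a-2_ctrl replicate 2). The difference of responses of GSTF12 ranged from −0.21 to 0.44 (below 0 without replicate 2 of any group).
Members called in other comparisons ranged as follows when each library was left out: among the 8 other than DFR and LDOX, lower between genotypes in zebularine 1 to 4, higher between genotypes in control medium 0 to 2, and lower in the difference 0 to 1, which was 4 with DESeq2 and 5 without a filter. Members called in WT with zebularine were not counted, since the choice of the genes used that response.
Counts over all genes moved too. Between genotypes in control medium, 449 higher became 717 with DESeq2, 965 without a filter and 845 with the replicate block, and 168 lower became 332 without a filter and 314 with the block. In WT with zebularine, 327 higher became 652 with DESeq2, 851 without a filter and 749 with the block, and 125 lower became 202, 276 and 206. For the difference, 108 higher became 328, 363 and 288, and 44 lower became 157, 214 and 168. With each library left out, calls ranged from 553 to 1902 higher and 161 to 1171 lower for zebularine in nse4a-2, 1251 to 2757 and 524 to 2081 between genotypes in zebularine, 102 to 576 and 22 to 247 in control medium, 18 to 447 and 5 to 124 for zebularine in WT, and 5 to 185 and 0 to 45 for the difference. The cause was not tested; a fit without 1 library holds fewer libraries. Same-numbered replicates share no stated source, so the block is only an alternative. With 2 libraries per group, PAP1, at 10 to 50 reads, is limited by depth.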
